A study of Mus musculus with 6 samples.

Results

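Oligodendrocytes arise from precursor cells through a committed and a newly formed stage, and 10 genes that mark these steps were followed in the mouse hippocampus. The precursor genes are *Pdgfra* and *Cspg4*, the lineage factors are *Olig2* and *Sox8*, the genes of committed cells are *Gpr17*, *Bmp4* and *Neu4*, and those of newly formed oligodendrocytes are *Enpp6*, *Bcas1* and *Tcf7l2*. They were taken by gene name from the table of estimated counts. Each of the 10 names had 1 row among the 55421 genes listed, and 10 of 10 were among the 17069 genes that passed the filter on low counts.

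The RNA came from hippocampi of male wild-type C57BL/6N mice, 8 to 10 weeks old. In the SP group, 3 mice received substance P (SP), a tachykinin neuropeptide, at 10 µM in 100 µL under the skin for 14 days. In the vehicle group, 3 mice received the same volume of saline. The comparison asks how chronic peripheral SP alters hippocampal gene expression, and each mouse gave 1 stranded mRNA library. Groups were taken from the sample labels and the matching column names, so SP and vehicle library below always mean the library labelled so. The text of the study describes *Mbp* and *Mag* as lower and *Drd1* as higher after SP, which is the reverse of their direction under these labels. No measurement here shows independently which mice received SP, so whether the 2 names are exchanged could not be settled, and if they are, every direction below turns.

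Oligodendrocyte precursor cells persist in the adult hippocampus, divide slowly and respond to platelet-derived growth factor through the receptor encoded by *Pdgfra*. When a precursor leaves the cell cycle it loses this receptor and the NG2 proteoglycan, passes through a brief stage marked by the receptor *Gpr17*, and then turns on genes of process outgrowth and early myelin. Bone morphogenetic proteins restrain this path, and Wnt signaling through beta-catenin and its TCF/LEF partners acts at the step from the committed to the myelinating cell.

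The libraries held between 22349964 and 27605935 counts, and at this depth 3 counts, the limit taken for a count of 0, corresponded to 0.109 to 0.135 CPM. CPM is a gene's count scaled to 1000000 counts of normalized library size, and this limit covers counting error only. Mice carry the numbers 1 to 3 within a group, which the labels name batches. A batch thus paired 1 vehicle with 1 SP mouse, and it was entered as a block in edgeR's quasi-likelihood test. A gene was called a DEG at FDR < 0.1 and |log2FC| > 0.3, and all differences are SP relative to vehicle. Library SP 2 was the highest library for 24.4% and the lowest for 21.7% of all tested genes. In SP 1 the summed level of 8 choroid plexus markers was 175 CPM, where the other libraries had 2810 to 4740 CPM.

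None of the 10 stage markers was called a DEG, a count of 0 where 5 genes or 0.0293% of all tested genes were called. At an unadjusted p under 0.05 from edgeR, 2 of the 10 were higher in the SP group, *Neu4* and *Enpp6*, and 0 were lower, against 4.48% and 5.59% of all tested genes. In these same 2 genes every SP library lay above every vehicle library, which held for 9.19% of all tested genes, and in 0 of the 10 every SP library lay below, which held for 9.03%. The log2 fold change was above 0 for 6 of the 10 and for 50.5% of all tested genes. DESeq2 with the block, which called 0.211% of all genes, called 0 of the 10 and had 0 at an unadjusted p under 0.05, where 1.82% of all genes were higher and 2.31% lower. With limma-voom 0 were called and 2 were higher at that p, as were 4.59% of all genes. DESeq2 without the block called 0 of the 10 and 0.779% of all genes, and edgeR without a filter called 0 of the 10 and 1.37% of all genes. The log2 fold changes ran from -0.35 for *Bmp4* to 0.38 for *Enpp6*. The median over the 10 genes was 0.072, and over all tested genes it was 0.0015.

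By stage, the median log2 fold change was -0.069 for the precursor pair, 0.072 for the lineage factors, 0.16 for the committed genes and 0.29 for the newly formed genes. Each of these medians stands for 2 or 3 genes, and the order was not tested. *Bmp4* of the committed genes and *Tcf7l2* of the newly formed genes had the opposite sign, -0.35 and -0.10. Without replicate 1 the medians were -0.028, 0.11, 0.18 and 0.325. Without replicate 2 the medians were -0.13, -0.013, 0.065 and 0.13. The last is the value of *Tcf7l2*, whose sign turned in that fit. Without replicate 3 they were -0.052, 0.12, 0.24 and 0.46. Because RNA was taken from whole tissue, fewer cells of a stage and less RNA per cell cannot be told apart.

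**Figure D1:**
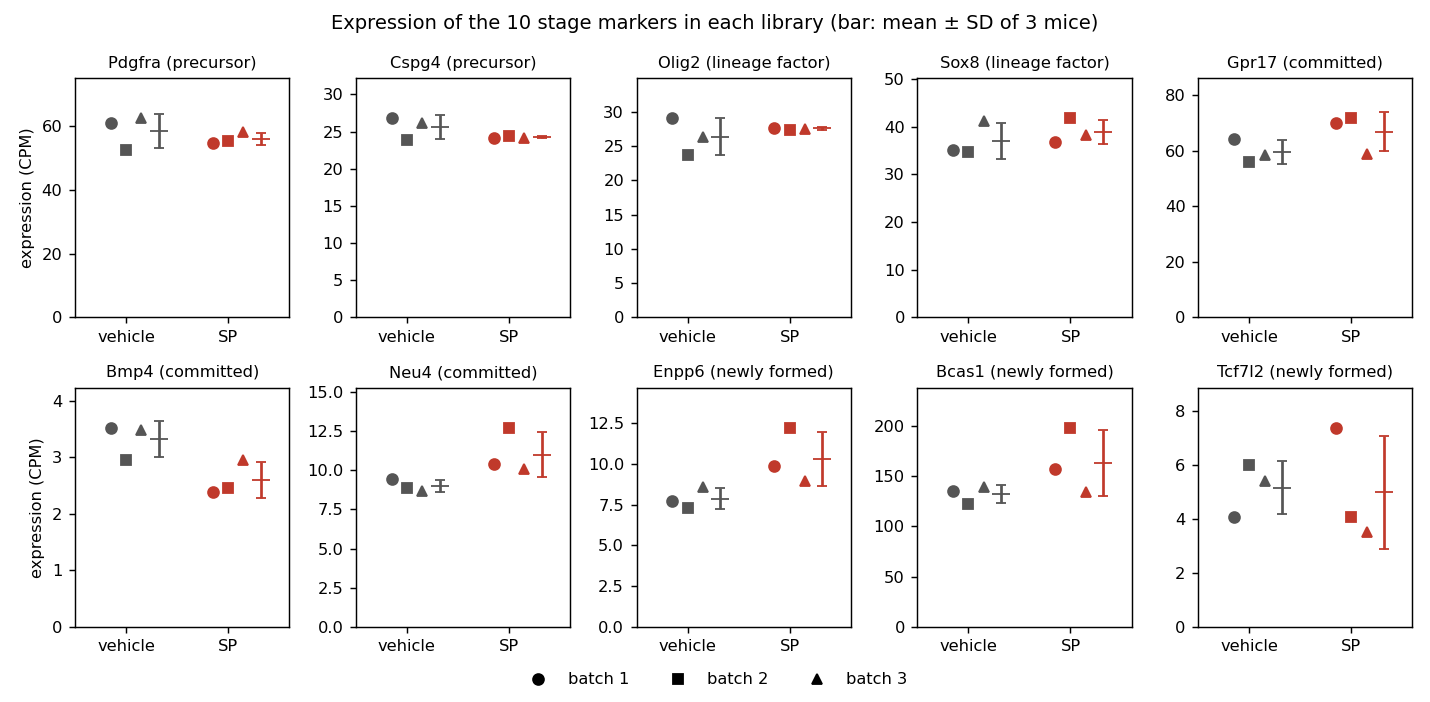
Expression of each stage marker in CPM (y axis, from 0) in the 3 vehicle and 3 SP libraries, with symbols for the batch and a bar for mean ± SD. *Neu4* and *Enpp6* have every SP library above every vehicle library, and *Bcas1* reaches 198 CPM in SP 2.

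Levels were compared between genes as CPM per kilobase of annotated exons, averaged over the 6 libraries. *Bcas1* was the most abundant at 39.1 CPM per kilobase, with libraries from 32.3 to 52.5. *Sox8* and *Gpr17* followed at 12.2 each, then *Olig2* at 10.7. *Sox8* ran from 11.1 to 13.4, *Gpr17* from 10.8 to 13.8 and *Olig2* from 9.36 to 11.5, so these neighbours overlapped in range.

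*Pdgfra* had 5.72 CPM per kilobase, with a range of 5.24 to 6.24 that met none of the others. Next came *Neu4* at 2.16 (1.87 to 2.73) and *Cspg4* at 2.09 (2.00 to 2.24), whose ranges overlapped. *Enpp6* at 1.42 (1.13 to 1.90) and *Bmp4* at 1.32 (1.06 to 1.57) also overlapped, and *Tcf7l2* was lowest at 0.578 (0.399 to 0.840). With the longest annotated transcript as the length, *Pdgfra* had 8.39, *Cspg4* 3.07, *Enpp6* 1.83, *Bcas1* 50 and *Tcf7l2* 1.36 CPM per kilobase, and *Cspg4* then stood above *Neu4*.

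Promoter sequence is shown for the pair of genes whose groups did not overlap, *Neu4* and *Enpp6*, and for *Pdgfra* as the precursor gene with little difference. The sequences are those before the RefSeq start site on GRCm38.p6, 5′ to 3′ on the plus strand. For *Neu4* the stretch ends where annotated exons begin. Capitals mark matches on either strand to CANNTG, the E box read by basic helix-loop-helix factors such as Olig2, to ACAATG, a SOX motif, and to TCAAAG, the core of the TCF/LEF motif.
Pdgfra, chr5:75152001-75152250: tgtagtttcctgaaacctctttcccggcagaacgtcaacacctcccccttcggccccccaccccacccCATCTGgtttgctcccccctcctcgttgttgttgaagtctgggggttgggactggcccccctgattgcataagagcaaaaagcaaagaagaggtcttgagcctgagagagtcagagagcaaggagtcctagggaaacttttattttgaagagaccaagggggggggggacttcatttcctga
Neu4, chr1:94020243-94020450: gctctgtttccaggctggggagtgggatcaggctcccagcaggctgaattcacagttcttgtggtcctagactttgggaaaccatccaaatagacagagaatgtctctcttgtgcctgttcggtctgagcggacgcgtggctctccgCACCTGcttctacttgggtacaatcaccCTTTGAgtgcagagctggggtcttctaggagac
Enpp6, chr8:46986637-46986886: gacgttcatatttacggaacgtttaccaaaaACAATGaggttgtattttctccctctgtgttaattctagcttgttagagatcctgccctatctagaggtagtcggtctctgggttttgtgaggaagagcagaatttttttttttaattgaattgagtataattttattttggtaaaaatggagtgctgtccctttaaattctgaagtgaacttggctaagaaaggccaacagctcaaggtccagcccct

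In its 250 bases *Enpp6* held ACAATG and no E box, and its GC content was 38.4%. *Neu4*, of which 208 bases are shown, held an E box and CTTTGA, the reverse complement of TCAAAG, and *Pdgfra* held an E box alone. Of 32851 promoter stretches of 250 bases, 66.2% hold CANNTG, 10.7% hold ACAATG and 13.8% hold TCAAAG, counted on both strands. Of the 10 stage markers, 8 matched the promoter table, all but *Gpr17* and *Bcas1*, with 9 entries. An E box was present in 4 of the 9, ACAATG in 3 and TCAAAG in 1, and the matches marked above did not overlap. The GC box GGGCGG was present in 5 of the 9 and TATAAA in 2, where 32.7% and 12.4% of all promoters hold them. A match describes the letters and not a site of binding.

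*Pdgfra* (ENSMUSG00000029231, chromosome 5 of GRCm38 from 75152292 to 75198215, plus strand) encodes the receptor through which platelet-derived growth factor keeps precursors dividing. It is also made by fibroblasts of the meninges. The vehicle libraries had 60.9, 52.5 and 62.5 CPM and the SP libraries had 54.6, 55.2 and 58.1 CPM. The SP values lay inside the range of the vehicle group, whose spread was set by vehicle 2. The fitted log2 difference of SP from vehicle was -0.064 (standard error 0.0651, 95% interval -0.22 to 0.089, edgeR FDR 0.787).

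*Cspg4* (ENSMUSG00000032911, chromosome 9 from 56865033 to 56899870, plus strand) encodes the NG2 proteoglycan on the surface of precursors and of pericytes. Its expression was 26.8, 23.8 and 26.2 CPM in the vehicle group and 24.2, 24.4 and 24.2 CPM in the SP group. The SP libraries were close to each other and again within the vehicle range. This amounted to a log2 fold change of -0.075 (standard error 0.0720, 95% interval -0.24 to 0.094, edgeR FDR 0.772). In both precursor genes the difference was negative in batches 1 and 3 and positive in batch 2, with -0.16, 0.071 and -0.10 for *Pdgfra* and -0.15, 0.038 and -0.11 for *Cspg4* in batches 1, 2 and 3.

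The other cell types that carry these genes were read from marker lists. Of 9 mural cell markers, 0 had an unadjusted p under 0.05, and their summed level was 220 to 233 CPM in the vehicle group and 219 to 246 CPM in the SP group. Of 9 leptomeningeal fibroblast markers, 9 had a negative log2 fold change with a median of -0.28, and the summed level was 364 to 440 CPM against 234 to 342 CPM. None of the markers of either list was at 0. *Igf2*, a growth factor of meninges and choroid plexus, had the smallest p of that list, with a log2 fold change of -0.70 (edgeR FDR 0.231), and *Aebp1* had -0.28 (edgeR FDR 0.354). The part of these cells in the values of *Pdgfra* was not tested.

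*Olig2* (ENSMUSG00000039830, chromosome 16 from 91225457 to 91228677, plus strand) encodes the basic helix-loop-helix factor that specifies the lineage and is kept at every stage. The vehicle libraries had 29.1, 23.7 and 26.3 CPM and the SP libraries 27.7, 27.4 and 27.5 CPM. The SP libraries were close to each other and lay within the vehicle range. In the fit with the block the log2 fold change was 0.068 (standard error 0.0765, 95% interval -0.11 to 0.25, edgeR FDR 0.812). It was -0.0028 without replicate 2, so the positive sign rested on batch 2.

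*Sox8* (ENSMUSG00000024176, chromosome 17 from 25565892 to 25570686, minus strand) encodes a group E SOX factor that acts beside Sox10 in oligodendrocytes and is also found in astrocytes. It had 35.1, 34.6 and 41.3 CPM in the vehicle group and 36.7, 41.8 and 38.3 CPM in the SP group. The highest vehicle library, vehicle 3, was level with the highest SP library, SP 2. With the block, the log2 fold change came to 0.076 (standard error 0.0823, 95% interval -0.12 to 0.27, edgeR FDR 0.801), and it was -0.024 without replicate 2. The antisense gene *2810468N07Rik* shares 329 exonic bases with *Sox8* on the other strand and had 17.2, 16.3 and 18.1 CPM against 20.5, 25.1 and 19.6 CPM. The library kit keeps strand, but the setting used in counting is not given in the sources used here, so how reads of the pair were split is uncertain.

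*Gpr17* (ENSMUSG00000052229, chromosome 18 from 31942997 to 31949636, minus strand) encodes a G protein-coupled receptor that appears in committed precursors and holds back their maturation until it is lost. The vehicle libraries had 64.2, 55.9 and 58.5 CPM and the SP libraries 69.9, 71.7 and 58.7 CPM. SP 1 and SP 2 lay above every vehicle library, while SP 3 lay among them. From edgeR came a log2 fold change of 0.16 (standard error 0.0758, 95% interval -0.015 to 0.34, edgeR FDR 0.522). Within batches 1, 2 and 3 it was 0.12, 0.36 and 0.0059, and without replicate 2 the fitted value was 0.065. *Lims2* on the other strand shares 188 exonic bases with it and had a log2 fold change of 0.14 (edgeR FDR 0.744).

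*Bmp4* (ENSMUSG00000021835, chromosome 14 from 46383520 to 46390669, minus strand) encodes a bone morphogenetic protein that committed precursors make and that restrains differentiation. Its libraries had 82, 73 and 96 counts in the vehicle group and 56, 59 and 66 in the SP group. Expression was 3.52, 2.95 and 3.48 CPM against 2.39, 2.45 and 2.96 CPM. The groups met only at vehicle 2 and SP 3, and the other SP libraries lay below every vehicle library. The log2 fold change was -0.35 (standard error 0.168, 95% interval -0.74 to 0.041, edgeR FDR 0.529). It was negative in 3 of 3 batches, as for 16.7% of all tested genes. This is opposite in sign to *Gpr17* and *Neu4* of the same stage.

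*Neu4* (ENSMUSG00000034000, chromosome 1 from 94020451 to 94028334, plus strand) encodes a sialidase, an enzyme that removes sialic acid from glycoproteins and glycolipids. It had 9.41, 8.89 and 8.67 CPM in the vehicle group and 10.4, 12.7 and 10.1 CPM in the SP group. Every SP library lay above every vehicle library, with SP 2 the highest. The means were 8.99 ± 0.380 CPM and 11 ± 1.41 CPM (SD, n = 3 each), a 1.22-fold difference. SP and vehicle differed by a log2 fold change of 0.29 (standard error 0.108, 95% interval 0.038 to 0.54). It was positive in 3 of 3 batches, as for 16.4% of all tested genes, at 0.14, 0.51 and 0.21. The unadjusted p from edgeR was 0.0293 and the FDR was 0.441, so that the difference did not pass the correction. It was 0.18 without replicate 2.

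*Enpp6* (ENSMUSG00000038173, chromosome 8 from 46986887 to 47096762, plus strand) encodes a choline phosphodiesterase that is used as a marker of newly forming oligodendrocytes. The vehicle libraries had 180, 180 and 236 counts and the SP libraries 231, 293 and 199. Expression was 7.74, 7.27 and 8.56 CPM against 9.84, 12.2 and 8.94 CPM. The lowest SP library, SP 3, lay just above the highest vehicle library, vehicle 3, and SP 2 stood apart at the top. The means were 7.86 ± 0.653 CPM and 10.3 ± 1.66 CPM (SD, n = 3 each), a 1.31-fold difference and the largest positive one of the 10 genes. The fitted log2 fold change was 0.38 (standard error 0.140, 95% interval 0.057 to 0.71, unadjusted p 0.0271, edgeR FDR 0.437). Within batches 1, 2 and 3 it was 0.34, 0.73 and 0.061. Without replicate 2 it was 0.20.

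*Bcas1* (ENSMUSG00000013523, chromosome 2 from 170346991 to 170427845, minus strand) encodes a membrane-associated protein of early myelinating cells that stays on in part of the mature cells. It had 135, 122 and 139 CPM in the vehicle group and 157, 198 and 134 CPM in the SP group. SP 1 and SP 2 lay above the vehicle range and SP 3 within it. The means were 132 ± 8.88 CPM and 163 ± 32.6 CPM (SD, n = 3 each). The fitted log2 difference of SP from vehicle was 0.29 (standard error 0.125, 95% interval -0.0037 to 0.58, edgeR FDR 0.499), and within batches it was 0.22, 0.70 and -0.052. It was 0.082 without replicate 2 and 0.46 without replicate 3. When SP 3 alone was left out and no block was fitted, *Bcas1* passed both thresholds with a log2 fold change of 0.42 (edgeR FDR 0.0880). In that fit 357 of 16952 tested genes were called, where the main fit called 5 of 17069.

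*Tcf7l2* (ENSMUSG00000024985, chromosome 19 from 55741820 to 55933654, plus strand) encodes a TCF/LEF factor that is switched on for a short time as oligodendrocytes start to differentiate. Thalamic neurons also express it. Its libraries had 4.08, 5.98 and 5.41 CPM in the vehicle group and 7.37, 4.07 and 3.50 CPM in the SP group. SP 1 was the highest of the 6 libraries and SP 3 the lowest, so that the SP group spanned the vehicle group on both sides. The spread was 18.9% of the mean in the vehicle group and 42.0% in the SP group. A log2 fold change of -0.10 resulted (standard error 0.283, 95% interval -0.76 to 0.56, edgeR FDR 0.931). Within batch 1 the difference was 0.84, and within batches 2 and 3 it was -0.55 and -0.61. The sign turned with the library left out, from -0.59 without replicate 1 to 0.15 without replicate 3. A list of 9 thalamic neuron markers summed to 138, 214 and 152 CPM in the vehicle group. In the SP group the sums were 161, 167 and 162 CPM, inside the vehicle range. Single markers differed from the sum, and they are named after their values were seen. *Gbx2*, *Rgs16*, *Tnnt1* and *Calb2* were highest in vehicle 2 and next highest in SP 1. *Calb2* had 32.1, 40.3 and 36.6 CPM against 39.6, 31.9 and 35.4 CPM. *Prkcd*, *Zic1*, *Slc17a6*, *Lef1* and *Plekhg1* did not have this order. The part of thalamic cells in the values of *Tcf7l2* was not tested.

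**Figure D2:**
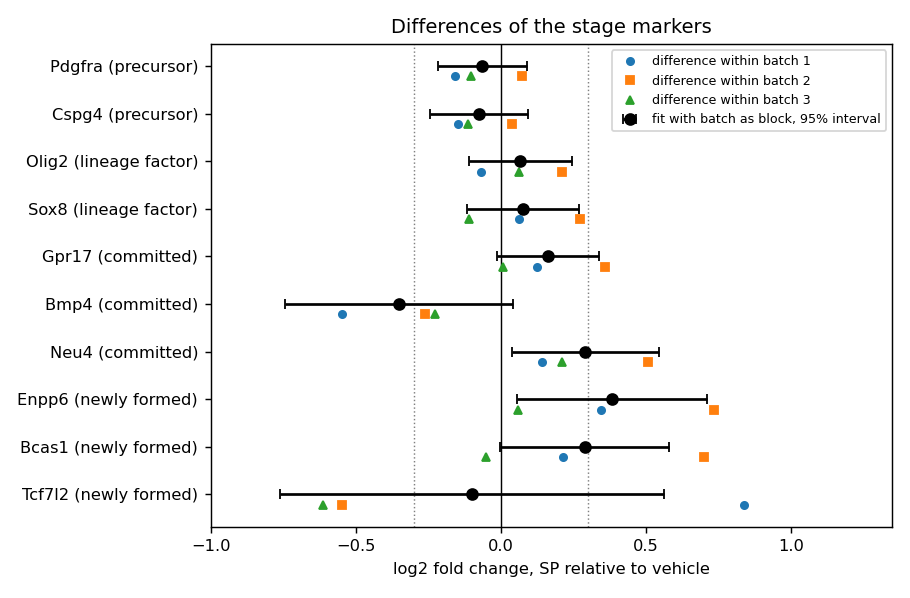
The log2 fold change of each stage marker, SP relative to vehicle (x axis), from the fit with batch as a block, with 95% intervals, and below it the difference within each batch. Dotted lines mark the minimum of 0.3 used for calls. The intervals of *Neu4* and *Enpp6* exclude 0 before correction, batch 2 gives the highest value for 8 of the 10 genes, and *Tcf7l2* has opposite signs in different batches.

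The libraries that carried these differences were the same for several genes. SP 2 was the highest library for 5 of the 10 stage markers, *Sox8*, *Gpr17*, *Neu4*, *Enpp6* and *Bcas1*. Vehicle 2 was the lowest for 7 of them, where it was the lowest for 13.0% of all tested genes. The median difference over the 10 genes was 0.093 in batch 1, 0.24 in batch 2 and -0.078 in batch 3. *Bmp4* and *Tcf7l2* departed from this pattern, since both were lower in SP 2 than in vehicle 2.

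**Figure D3:**
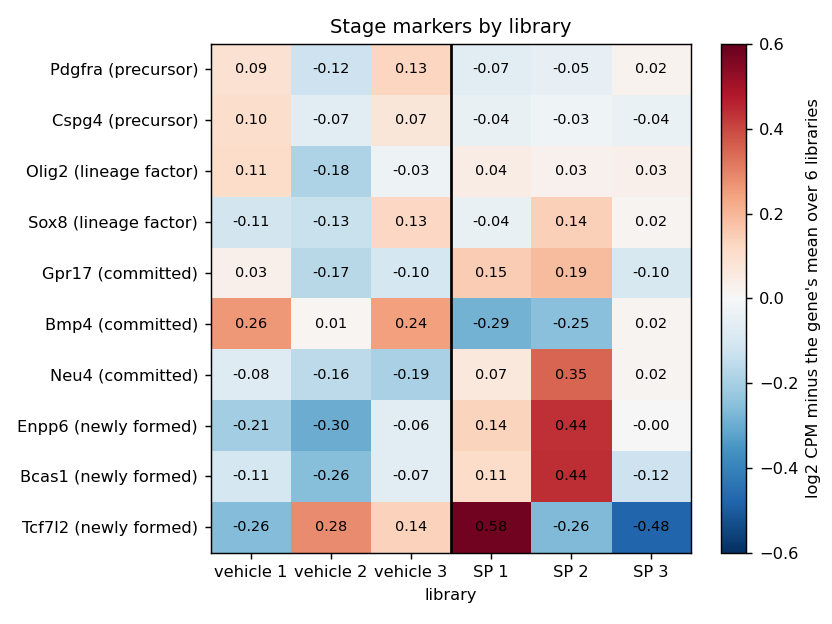
Log2 CPM of each stage marker minus that gene's mean over the 6 libraries (colour and printed value), with libraries in columns and genes in rows by stage. SP 2 holds the highest values of *Neu4*, *Enpp6* and *Bcas1* at 0.35, 0.44 and 0.44, while *Bmp4* and *Tcf7l2* are below their means there.

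The balance of stages was described by the ratio of each of the other 9 genes to *Pdgfra* within a library, in CPM and not per length. *Cspg4* to *Pdgfra*, a ratio within the precursor stage, was 0.419 to 0.453 in the vehicle group and 0.416 to 0.443 in the SP group. *Gpr17* to *Pdgfra* was 1.05, 1.06 and 0.936 against 1.28, 1.30 and 1.01. *Enpp6* to *Pdgfra* was 0.127, 0.138 and 0.137 against 0.180, 0.220 and 0.154, without overlap of the groups. *Neu4* to *Pdgfra* was 0.155, 0.169 and 0.139 against 0.190, 0.229 and 0.173, also without overlap. For *Bcas1* to *Pdgfra* the values were 2.22, 2.32 and 2.22 against 2.88, 3.59 and 2.30, so that SP 3 lay within the vehicle range. *Bmp4* to *Pdgfra* went the other way, with 0.0579, 0.0562 and 0.0557 against 0.0437, 0.0444 and 0.0510, lower without overlap. In CPM the groups of *Bmp4* did overlap, with 2.95 in vehicle 2 and 2.96 in SP 3. *Pdgfra*, the shared denominator, had 52.5 and 58.1 CPM in these libraries. The lineage factors were also above every vehicle library in SP 1 and SP 2, with *Olig2* to *Pdgfra* at 0.478, 0.451 and 0.421 against 0.508, 0.496 and 0.473, and *Sox8* to *Pdgfra* at 0.577, 0.658 and 0.660 against 0.672, 0.757 and 0.659. *Tcf7l2* to *Pdgfra* had 0.0670, 0.114 and 0.0865 against 0.135, 0.0737 and 0.0602, with SP 1 the highest and SP 3 the lowest. The genes of the committed and newly formed stages thus had ratios on both sides of the vehicle range. These ratios were chosen after the values of the genes were seen and were not tested. How often the ratio of any gene to *Pdgfra* separates the groups was not counted. In CPM itself the groups did not overlap for 18.2% of all tested genes.

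**Figure D4:**
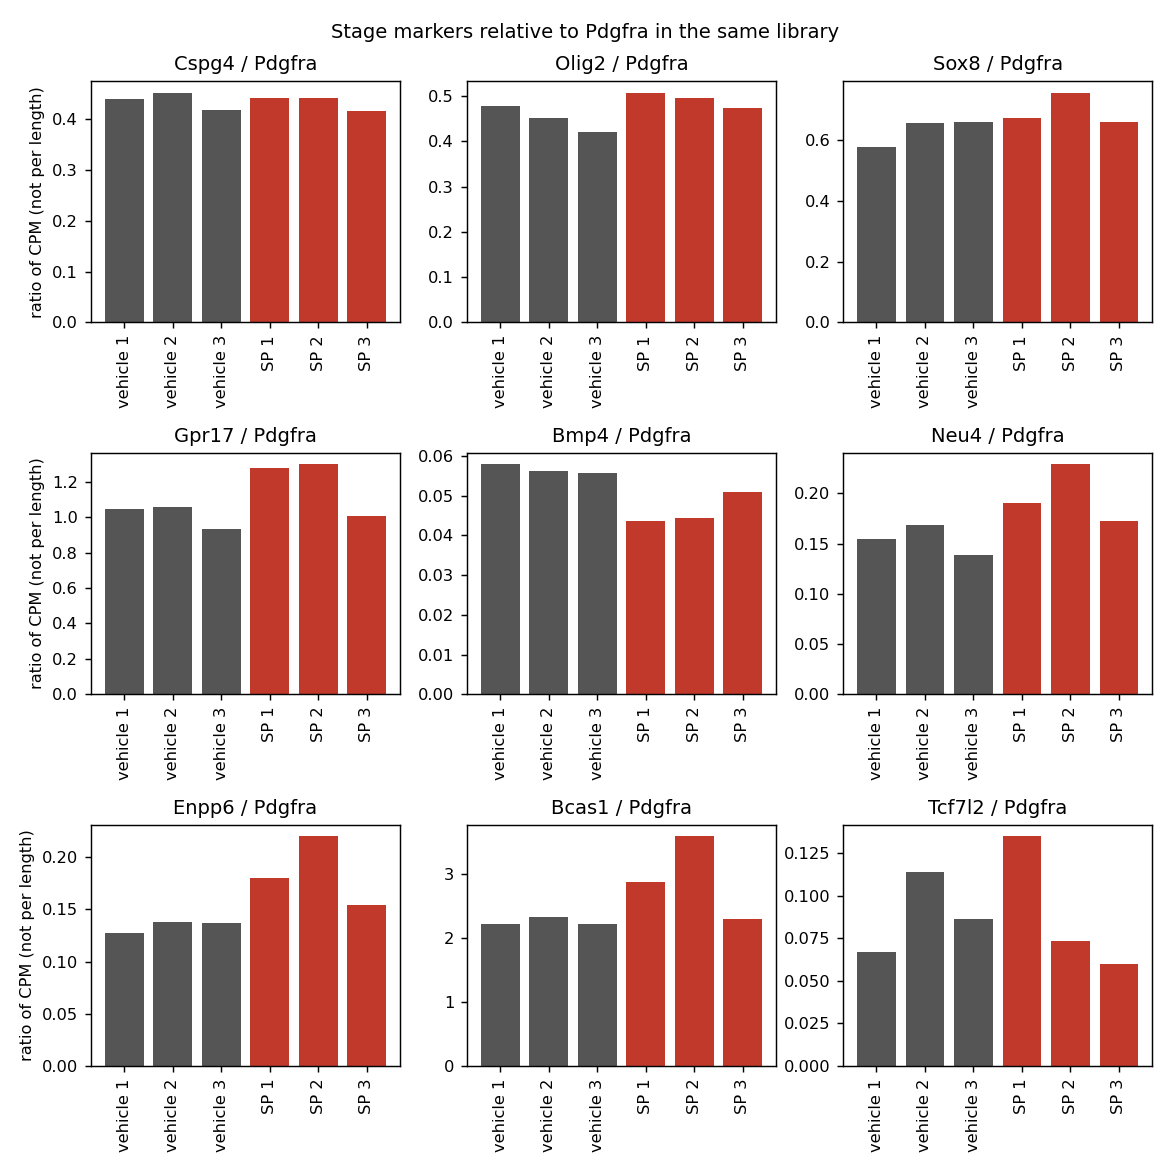
Ratio of the CPM of the other 9 stage markers to that of *Pdgfra* in the same library (y axis, from 0), for the vehicle libraries in grey and the SP libraries in red. The ratio of *Enpp6* is 0.127 to 0.138 in the vehicle group and 0.154 to 0.220 in the SP group, that of *Bmp4* is 0.0557 to 0.0579 and 0.0437 to 0.0510, and that of *Cspg4* stays between 0.416 and 0.453 in all 6 libraries.

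Further genes of the same steps were described as lists. Of 12 other precursor genes, 5 had a positive and 7 a negative log2 fold change, with a median of -0.015, and 3 had an unadjusted p under 0.05, all lower in the SP group. *Pcdh15*, a cadherin of precursors, had 22.4, 23.2 and 24.2 CPM against 18.8, 14.4 and 22.1 CPM, a log2 fold change of -0.35 (edgeR FDR 0.415). *Xylt1*, which starts the sugar chains of proteoglycans, had -0.15 (edgeR FDR 0.430). The third, *Cspg5*, a proteoglycan of precursors and other neural cells, had -0.15 (edgeR FDR 0.455) and is named here after its value was seen. In 3 of the 12 every SP library lay below every vehicle library, as for 9.03% of all tested genes, and in 0 above. These were *Pcdh15*, *Cspg5* and *Lhfpl3*, the last with -0.18 (edgeR FDR 0.534) and also named after its value was seen. The groups overlapped for *Xylt1*.

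Of 13 other genes of committed and newly formed cells, 9 had a positive log2 fold change with a median of 0.069, and 0 had an unadjusted p under 0.05 in either direction. The summed level was 393 to 401 CPM in the vehicle group, and 402, 443 and 401 CPM in SP 1, SP 2 and SP 3.

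Of 16 transcription factors of the lineage, 5 were higher and 3 lower at an unadjusted p under 0.05, and 0 were called. *Nkx6-2*, a homeodomain factor of maturing oligodendrocytes, had 8.04, 9.17 and 7.58 CPM against 10.9, 12.9 and 11 CPM. Its log2 fold change was 0.49 (edgeR FDR 0.308), and the groups did not overlap. *Olig1*, the neighbour and partner of *Olig2*, had 87.1, 83.0 and 88.1 CPM against 98.6, 99.4 and 93.9 CPM, with a log2 fold change of 0.18 (edgeR FDR 0.414). On the other side, *Sox6*, which holds precursors undifferentiated, had 22.9, 22.2 and 24.1 CPM against 19.3, 19.5 and 19.8 CPM, with -0.24 (edgeR FDR 0.394). Also past that p, and named after their values were seen, were *Sox10*, *Myrf* and *St18* with 0.32, 0.37 and 0.23 and *Sox5* with -0.22 (edgeR FDR 0.458, 0.430, 0.476 and 0.429). Without replicate 2 the median of this list was -0.026, where it was 0.093 with all libraries.

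All 19 genes of mature oligodendrocytes had a positive log2 fold change, with a median of 0.35, and 14 of them had an unadjusted p under 0.05 and 0 were called. The study chose *Mbp* and *Mag* of this list from its DEGs of these samples, called with DESeq2 at the same thresholds and adjusted for replicates. It describes them as lower after SP, the reverse of the labelled libraries. There they had 0.38 and 0.37, and neither passed the thresholds in edgeR (edgeR FDR 0.415 and 0.350). The list was known to differ, so its direction is not independent evidence. *Hapln2*, a link protein at nodes of Ranvier, had 14.4, 14.2 and 14.9 CPM against 20.1, 24.1 and 18 CPM, a log2 fold change of 0.51 (edgeR FDR 0.308). *Aspa*, which cleaves N-acetylaspartate, had 0.41 (edgeR FDR 0.313). The summed level was 4760 to 5320 CPM in the vehicle group and 6000, 7750 and 5430 CPM in SP 1, SP 2 and SP 3. SP 2 was thus also the highest library for the mature genes. Without replicate 2 the median was 0.16.

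Among the closest relatives of the stage markers, 14 of 15 were tested and *Olig3* had 0 counts in every library. At an unadjusted p under 0.05, 2 were higher, *Olig1* and *Sox10* described above, and 2 were lower. *Sox9*, the third group E SOX gene beside *Sox8* and *Sox10* and a factor of astrocytes and early glia, had 31.5, 32 and 32.9 CPM against 26.6, 30.1 and 27.0 CPM. Its log2 fold change was -0.21 (edgeR FDR 0.424), whereas *Sox8* had 0.076. *Neu3*, a plasma membrane sialidase, had 3.74, 3.60 and 3.05 CPM against 2.64, 3.11 and 2.02 CPM, a log2 fold change of -0.43 (edgeR FDR 0.463), whereas *Neu4* had 0.29. The differences between such relatives were not tested.

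Of 11 genes of growth factor signaling in precursors, 0 were higher and 1 was lower at an unadjusted p under 0.05. This was *Pdgfd*, a ligand that acts mainly through the beta receptor, with 9.93, 7.36 and 9.43 CPM against 4.47, 6.23 and 6.47 CPM. In the fit with the block the log2 fold change was -0.64 (edgeR FDR 0.367), and the groups did not overlap. *Pdgfa*, the ligand of the receptor that *Pdgfra* encodes, had 27.7 ± 1.07 and 28.4 ± 1.78 CPM (SD, n = 3 each), with a log2 fold change of 0.033 (edgeR unadjusted p 0.681).

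Of 17 genes of BMP signaling other than *Bmp4*, 2 were higher and 2 lower at an unadjusted p under 0.05, with a median of 0.012. The lower pair were ligands. *Bmp7* had 16.6, 15.3 and 16.6 CPM against 9.97, 8.92 and 12.2 CPM, a log2 fold change of -0.65 (edgeR FDR 0.242). *Bmp6* had 19.5, 18.6 and 21.4 CPM against 10.8, 12.8 and 17.1 CPM, a log2 fold change of -0.56 (edgeR FDR 0.308). Both ligands are also made by meninges or choroid plexus, whose markers summed to 234 to 342 and 175 to 3970 CPM in the SP group against 364 to 440 and 3800 to 4740 CPM, and the part of those cells was not tested. The type I receptor gene *Acvr1* had 30.0, 31.9 and 30.9 CPM against 36.5, 39.8 and 35.1 CPM, with 0.26 (edgeR FDR 0.338), and the antagonist gene *Chrd* had 0.17 (edgeR FDR 0.424). The receptor genes *Bmpr1a*, *Bmpr1b* and *Bmpr2*, named after their values were seen, had -0.0925, -0.0552 and -0.0962 (edgeR FDR 0.647, 0.834 and 0.591). In 6 of the 17 every SP library lay below every vehicle library and in 3 above, as for 9.03% and 9.19% of all tested genes. The targets *Id1*, *Id3* and *Id4* had 0.15, 0.11 and 0.012, and *Id2* had -0.20, with unadjusted edgeR p of 0.128, 0.218, 0.839 and 0.0503.

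Of 14 genes of Wnt signaling, in which the product of *Tcf7l2* acts, 0 had an unadjusted p under 0.05 in either direction, and the median was -0.0093. *Axin2*, a common target of the pathway, had 28.1 ± 0.528 and 27.3 ± 1.57 CPM (SD, n = 3 each). Of 8 genes of proliferating cells, 5 had a positive and 3 a negative log2 fold change, with a median of 0.046. At an unadjusted p under 0.05, 0 were higher and 1 was lower. This was *Ccna2*, a cyclin of DNA synthesis, with a log2 fold change of -0.48 (edgeR FDR 0.458). *Mki67* had 0.18 (edgeR FDR 0.825).

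**Figure D5:**
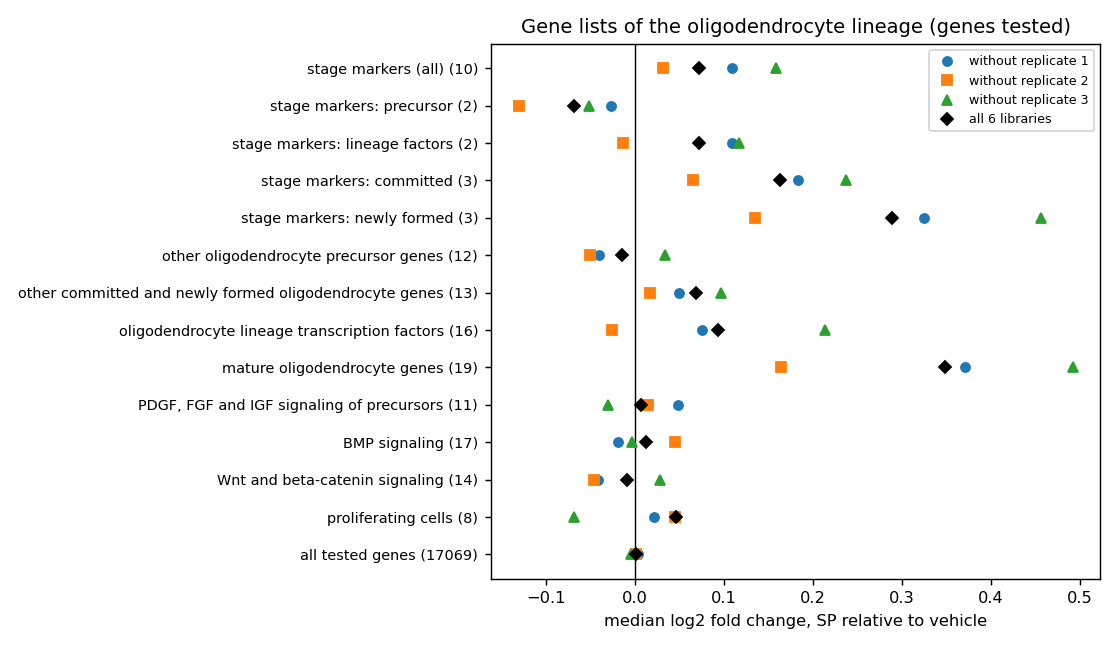
Median log2 fold change, SP relative to vehicle (x axis), of the stage markers, their stages and further lists of the lineage, with the number of genes tested in brackets, in all 6 libraries and without each replicate. With all libraries and without replicate 2, the 3 newly formed genes had 0.29 and 0.13, which are the values of *Bcas1* and *Tcf7l2*. The 13 other committed and newly formed genes had 0.069 and 0.0165, and the mature genes 0.35 and 0.16. All tested genes lie at 0.0015.

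Other cell types and regions were checked in the same libraries. All 9 hippocampal neuron markers passed the filter, with a summed level of 885 to 927 CPM in the vehicle group and 866 to 1130 CPM in the SP group. Of these, 5 were higher at an unadjusted p under 0.05, led by *Fibcd1* of CA1 cells with 0.26 and *Iyd* with 0.88 (edgeR FDR 0.308 for both), and SP 2 had the highest sum. The other 3, named after their values were seen, were *C1ql2*, *Grik4* and *Cpne4* with 0.26, 0.22 and 0.20. Over the 9 markers, 8 log2 fold changes were positive and 1 was negative, that of *Wfs1* with -0.16 (edgeR FDR 0.586). *Zbtb20* had 0.0071. Of 9 neocortical neuron markers, 8 had a negative log2 fold change and 1 a positive one, *Rspo1* with 0.58 (edgeR FDR 0.552). The median was -0.24, and *Fezf2* had -0.013. The 9 markers summed to 179 to 239 CPM in the SP group against 265 to 284 CPM, with 5 lower at an unadjusted p under 0.05. *Cux2* had -0.64 (edgeR FDR 0.308), and *Tbr1*, *Rorb* and *Tshz2*, named after their values were seen, had -0.25, -0.24 and -0.87. Of 8 striatal markers 3 were lower at that p, among them *Drd1* with -0.92 (edgeR FDR 0.359) and *Ppp1r1b* with -0.28 (edgeR FDR 0.416). The study names *Drd1* among its DEGs as higher, so its direction here is also the reverse. Over the 8 markers, 3 log2 fold changes were positive and 5 negative, with a median of -0.073. The positive ones included *Adora2a* with 0.26 (edgeR FDR 0.770).

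Of 9 astrocyte markers 0 had an unadjusted p under 0.05, and their sums were 4460 to 4700 and 4400 to 4740 CPM. All 8 choroid plexus markers had a negative log2 fold change with a median of -1.1, of which *Clic6* and *Kl* had -1.06 and -0.99 (edgeR FDR 0.481 and 0.485), and without replicate 1 the median was -0.31. Of 9 thalamic markers, 3 had a positive and 6 a negative log2 fold change, with a median of -0.080. At an unadjusted p under 0.05, 0 were higher and 1 was lower. This was *Slc17a6*, the vesicular glutamate transporter of subcortical neurons, with -0.48 (edgeR FDR 0.308). None of the genes in these lists was called a DEG, and the part of neighbouring tissue in the values of the stage markers was not tested.

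The mean profile of the 10 stage markers over the libraries, in centred log2 CPM, was -0.016, -0.11 and 0.025 in the vehicle group and 0.065, 0.10 and -0.063 in the SP group. Of all other tested genes, *Tnip1*, *Rtf2*, *Sec23ip*, *Khsrp* and *Zfp691* had the smallest root mean square distance from it over the 6 libraries, 0.0153 to 0.0181 on the log2 scale. Their log2 fold changes were 0.058 to 0.089. The distance of the stage markers themselves from their mean ran from 0.0808 for *Gpr17* to 0.364 for *Tcf7l2*.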

How the data were processed

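Hippocampal mRNA libraries of 3 vehicle and 3 SP mice were analysed. Per the labels and the methods of the study, the authors trimmed reads with Trim Galore, aligned them to GRCm38 with STAR and quantified genes with Salmon in a Nextflow pipeline; versions, annotation release and strand setting are not given in the sources used here. The deposited values are estimated counts per gene, of which 9.77% were not whole, and they were rounded.

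Genes were kept by filterByExpr (minimum count 10, minimum total 15), normalized by TMM and tested with edgeR 4.0.16 in R 4.3.3 (quasi-likelihood, batch as block, Benjamini-Hochberg over 17069 genes). Log2 CPM used a prior count of 2. Fold changes are SP relative to vehicle. DESeq2 1.42.0 and limma 3.58.1 served as alternatives. Scripts were tested on simulated data.

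The stage markers and lists were chosen with earlier results of these data known. Outside the stage markers, up to 2 higher and 2 lower genes per list were named, those with the smallest unadjusted p under 0.05 and the same direction in all 3 batches, plus the 5 genes nearest to the mean profile of the stage markers. Some genes that the rule names are not reported here. Lists share some genes. Gene positions follow GENCODE M21 on GRCm38, and promoters follow RefSeq. The batch pairing comes from the labels; deviations of same-numbered libraries from their group means correlated across genes with r of 0.014, -0.066 and 0.073.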

Additional observations from a re-analysis of the deposited data

How the results depend on the processing

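With no replicate block, 2 genes of the whole table were called DEGs where the block gave 5, and no stage marker was called either way, so the block and its pairing changed no call among them. The count over all genes was 36 with DESeq2 and the block, 133 with DESeq2 and no block, 2 with limma-voom, 384 without a filter, 0 with at least 10 counts in every library and 0 at FDR under 0.05. Without 1 replicate pair it was 9 to 36, and without 1 library and without the block 1 to 357. The number of stage markers called was 0 under these alternatives and 0 to 1 when 1 library was left out. *Bcas1* was called without SP replicate 3, the setting in which 357 genes were called.

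The sign turned for 3 of the 10 stage markers. *Olig2* had a log2 fold change of -0.0028 without replicate 2 and -0.0076 without vehicle 2, and *Sox8* ran from -0.024 without replicate 2 to 0.17 without replicate 3. *Tcf7l2* had -0.59, 0.13 and 0.15 without replicates 1, 2 and 3, 0.067 without vehicle 2, and 0.078 and 0.14 without SP 2 and SP 3. The other 7 kept their sign in 17 of 17 alternatives, with *Neu4* between 0.18 and 0.36, *Enpp6* between 0.20 and 0.54 and *Bcas1* between 0.082 and 0.46. At an unadjusted p under 0.05, 0 stage markers passed without replicate 2, where 5.34% of all genes were higher and 6.1% lower, or with DESeq2 and the block (1.82% and 2.31%), and 4 were higher without a filter (3.46%). Without vehicle 2, 0 were higher and 2 lower (4.55% and 4.39%). Without replicate 1, 1 was higher and 1 lower (2.39% and 3.54%). Without SP 1, 3 were higher and 1 lower (5.37% and 5.39%), and without SP 3, 4 and 1 (7.11% and 8.08%). Per kilobase of the longest transcript, levels were 8.39 for *Pdgfra*, 3.07 for *Cspg4*, 1.83 for *Enpp6*, 50 for *Bcas1* and 1.36 for *Tcf7l2*. *Bmp4* and *Tcf7l2* had the fewest counts, 56 to 173 per library, and the spread of *Tcf7l2* in the SP group was 42.0% of its mean. Every direction rests on the group labels. The labels do not say what a batch was.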
